A study of Oryza sativa with 9 samples.

Results

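The 5 rice genes 4CL1 to 4CL5 encode 4-coumarate:CoA ligases, and they were taken by their RAP identifiers from the 37858 genes of the deposited expression table. They are 4CL1 (Os08g0245200) and 4CL5 (Os08g0448000) on chromosome 8, 4CL2 (Os02g0697400) and 4CL3 (Os02g0177600) on chromosome 2, and 4CL4 (Os06g0656500) on chromosome 6. All 5 were detected in every library, and 4 of them were high enough to be tested.

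A 4-coumarate:CoA ligase joins 4-coumaric acid and related hydroxycinnamic acids to coenzyme A. The product, 4-coumaroyl-CoA, stands at the branch between lignin and flavonoid synthesis: hydroxycinnamoyltransferase (HCT) takes it towards monolignols, the building blocks of lignin, and chalcone synthase (CHS) takes it towards flavonoids. In rice, 4CL3 is known as a main lignin isoform, since plants with less of it have less lignin, whereas 4CL2 has been linked to flavonoid synthesis and to the response to ultraviolet light.

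Transcripts were measured by RNA sequencing in rice leaves (Oryza sativa) at 85 days after sowing, with 3 libraries for each of 3 genotypes. The mutant carried a mutation of the gene that the study altered, OE overexpressed that gene, and WT was the wild type. The labels do not give the type of mutation, the promoter of the overexpression construct, the number of independent lines or the hour of sampling. Sample titles of OE and WT share a trailing number that no label explains and that is not the stated age, while mutant titles are built differently. If that reflects a difference in sampling, its effect and that of the mutation cannot be told apart.

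The values are FPKM, reads scaled by gene length and by library total, so levels of different genes can be set side by side. Library totals were 10674819 to 11809530 reads. Whether each library came from its own plant is not stated in the labels, and p-values therefore cover only the variation among these libraries, part of which may be technical. The first principal component, with 72.2% of the variance, separated the mutant libraries from the 6 of OE and WT. On the second, OE replicate 1 lay at 2.5, the other OE libraries at -31.8 and -29, and the WT libraries at 17.4 to 22.7. Of 6 leaf marker identifiers listed, 4 had a supported name. These (RBCS-C, RCA, CAB2R and CAB1R) were detected in every library.

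4CL3 held the largest share of ligase transcript in every library of all 3 genotypes. The order in WT was 4CL3, 4CL5, 4CL4, 4CL2 and 4CL1, with means of 23.4 ± 1.75, 5.04 ± 0.753, 4.15 ± 0.580, 1.04 ± 0.921 and 0.113 ± 0.0490 FPKM (SD, n = 3). The WT ranges of the neighbours 4CL5 and 4CL4 overlapped, and those of the other neighbours did not. OE kept the same order of means. In OE, the ranges of 4CL5 and 4CL4 overlapped, and those of the other neighbours did not. The mutant order of means was 4CL3, 4CL2, 4CL5, 4CL4 and 4CL1. There, 4CL2 and 4CL3 overlapped in range, as did 4CL5 and 4CL4, while 4CL2 lay above 4CL5 and 4CL1 below all others in every library.

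The isoform linked to flavonoids, 4CL2, was the only tested member that passed the test, and it did so in both comparisons of the mutant. It was at 12.0, 8.03 and 22.0 FPKM in mutant replicates 1 to 3. In OE it was at 0.370, 0.445 and 1.95 FPKM. In WT it was at 0.344, 2.09 and 0.700 FPKM. Every mutant library lay above every OE and WT library, and the lowest mutant value was well above the highest of the other 6. These levels rest on 196 to 561 reads per mutant library, 10 to 51 per OE library and 9 to 56 per WT library.

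The mean of 4CL2 was 14.0 ± 7.23 FPKM in the mutant and 1.04 ± 0.921 FPKM in WT (SD, n = 3 each), a ratio of means of 13.4. That ratio was 9.59 to 26.9 with each library left out in turn, the highest without WT replicate 2. 4CL2 rose by 2.86 in the mutant against WT on the log2(FPKM + 1) scale, where changes of genes with low values come out too small (SE 0.43, 95% interval 1.89 to 3.83, limma adjusted p = 0.00067). Of the 19850 genes tested, 135 (0.680%) had a larger log2 fold change in this comparison. The size of the change depended on how low values were treated: it was 1.60 with a pseudocount of 5 and 3.97 in a voom fit of the recovered reads. Over all alternatives the adjusted p was 0.00046 to 0.0041. In these bulk leaf samples, a change in the number of cells that express a gene and a change in RNA per cell cannot be told apart.

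Against OE the picture was the same in direction, with OE libraries in place of WT ones. 4CL2 averaged 14.0 ± 7.23 FPKM in the mutant and 0.923 ± 0.893 FPKM in OE (SD, n = 3 each), a ratio of means of 15.2. The ratio was 10.8 to 34.4 with each library left out in turn, the highest without OE replicate 3. Its log2 fold change was 2.95 (SE 0.43, 95% interval 1.98 to 3.92, limma adjusted p = 0.00054), and 119 genes (0.600%) had a larger one. Both comparisons share the mutant libraries, so they are not independent.

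No change of 4CL2 could be detected in OE. The log2 fold change in OE against WT was -0.09 (95% interval -1.06 to 0.88, limma adjusted p = 0.96). 4CL2 varied among replicates in every genotype. Its coefficient of variation was 51.6% in the mutant, 96.8% in OE and 88.3% in WT, against 5.33%, 20.4% and 19.0% from counting error alone at the mean number of reads per library.

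Some marker transcripts also differed in level between the mutant and the other genotypes. The summed level of the 4 leaf markers was 5059 to 6325 FPKM in the mutant, 3145 to 5044 FPKM in OE and 3028 to 4368 FPKM in WT. RCA, which encodes Rubisco activase, carried the higher sum, at 1978 to 2940 FPKM in the mutant, 110.6 to 226.5 FPKM in OE and 184 to 198 FPKM in WT. CAB2R, a chlorophyll-binding protein gene, was at 290.3 to 623 FPKM in the mutant, 921 to 1951 FPKM in OE and 463 to 1794 FPKM in WT, so it was not higher in the mutant. CAB1R was at 2737 to 3034 FPKM in the mutant, 2085 to 2853 FPKM in OE and 2347 to 2365 FPKM in WT, and RBCS-C overlapped between the genotypes. Genes listed as floral markers (MADS14, MADS18 and MADS3) summed to 208 to 233 FPKM in the mutant, 123 to 134 FPKM in OE and 145 to 180 FPKM in WT. Nearly all of each sum came from MADS14 and MADS18, and whether the libraries held floral tissue was not tested. Of these, MADS18 was at 102.7 to 115.4 FPKM in the mutant, 40.4 to 50.6 FPKM in OE and 50.9 to 64.9 FPKM in WT. MADS14, at 97.0 to 117.5 FPKM in the mutant, 82.8 to 88.0 FPKM in OE and 93.6 to 115.2 FPKM in WT, overlapped between the mutant and WT. MADS3 was below 0.5 FPKM in all 9 libraries and at 0 in OE replicate 1 and WT replicate 3, so 3 of 3 were detected in every mutant library and in 4 of the 6 OE and WT libraries. The cellulose synthase genes of secondary walls (CESA4, CESA7 and CESA9), markers of lignifying cells, summed to 0.269 to 0.468 FPKM in the mutant, 0.214 to 0.318 FPKM in OE and 0.0257 to 0.176 FPKM in WT. CESA7 was at 0 in all 9 libraries, and 1 of the 3 was detected in every library of each genotype. These sums lay close to 0, and the lowest, 0.0257 FPKM, came from CESA4 alone in WT replicate 3. Levels this low limit what the sums can show about a difference between genotypes. The part of these differences in the 4CL2 result was not tested.

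**Figure D1:**
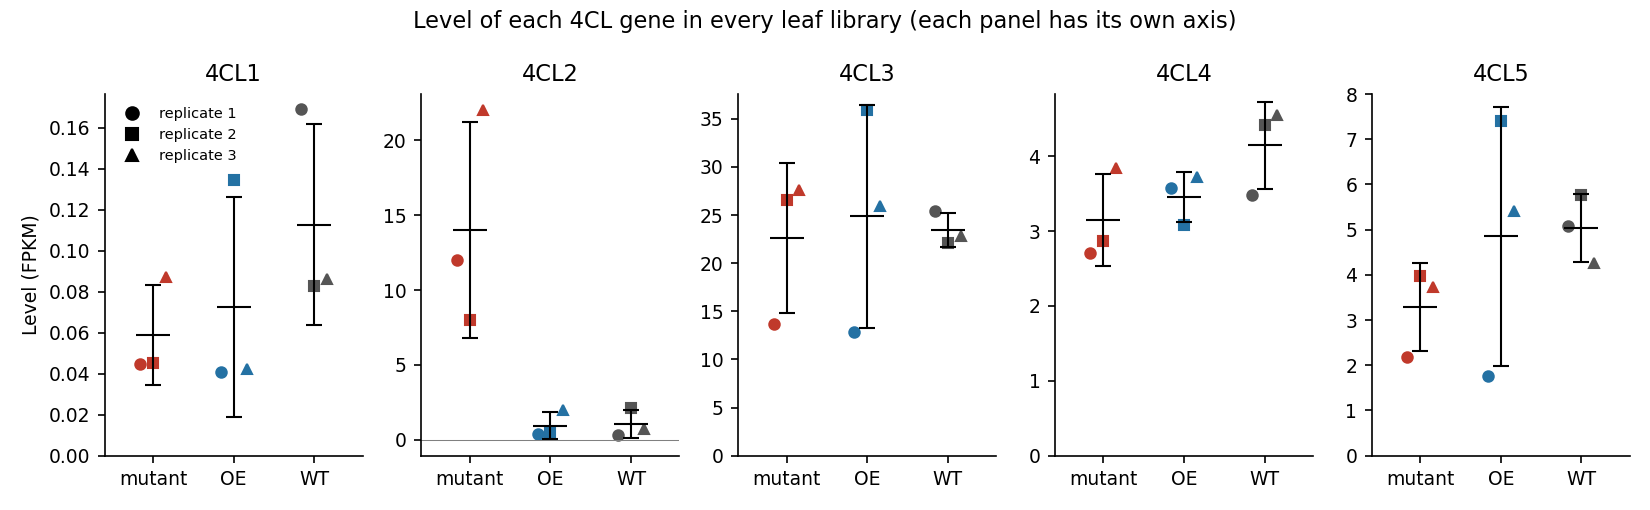
Level of each 4-coumarate:CoA ligase gene in FPKM (vertical axis, a separate scale per gene) in the mutant, OE and WT leaf libraries. Each point is a library, its shape gives the replicate number, and the bars show mean ± SD (n = 3). 4CL2 lay at 8.03 to 22.0 FPKM in the mutant, 0.370 to 1.95 FPKM in OE and 0.344 to 2.09 FPKM in WT, while the 3 genotypes of 4CL3 overlapped.

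The lignin isoform 4CL3 did not pass the test in any comparison. It was at 13.7, 26.6 and 27.6 FPKM in mutant replicates 1 to 3. In OE it was at 12.8, 35.9 and 26.0 FPKM. In WT it was at 25.4, 22.1 and 22.8 FPKM. The 3 genotypes overlapped, and the libraries that stood lowest were mutant replicate 1 and OE replicate 1. Means were 22.6 ± 7.80, 24.9 ± 11.6 and 23.4 ± 1.75 FPKM in the mutant, OE and WT (SD, n = 3 each).

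The log2 fold change of 4CL3 was -0.11 in the mutant against WT (95% interval -0.90 to 0.68, limma adjusted p = 0.83). It was -0.03 in OE against WT (95% interval -0.81 to 0.76, limma adjusted p = 0.99) and -0.08 in the mutant against OE (95% interval -0.87 to 0.71, limma adjusted p = 0.87). Changes of up to about these bounds could not be told from none. Without mutant replicate 1 the value for the mutant against WT was 0.21, with the sign turned, and without OE replicate 1 that for OE against WT was 0.37. The coefficient of variation was 34.5% in the mutant, 46.5% in OE and 7.46% in WT, against 4.46%, 4.20% and 4.27% from counting error, so the mutant and OE libraries of 4CL3 differed among themselves more than the WT ones did. That difference in spread was not tested.

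4CL5 had its lowest values in the same mutant and OE libraries as 4CL3. It was at 2.19, 3.98 and 3.73 FPKM in the mutant replicates. In OE it was at 1.75, 7.40 and 5.41 FPKM. In WT it was at 5.08, 5.78 and 4.27 FPKM. Mutant replicate 1 and OE replicate 1 were the lowest of the 9. All 3 mutant libraries lay below all 3 WT libraries, while OE overlapped both.

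In the mutant against WT the log2 fold change of 4CL5 was -0.51 (SE 0.36, 95% interval -1.33 to 0.31, limma adjusted p = 0.29), which did not pass. Without mutant replicate 1 it was -0.31 (limma adjusted p = 0.58). It was -0.18 in OE against WT (95% interval -1.001 to 0.63, limma adjusted p = 0.90). Between the mutant and OE it was -0.33 (95% interval -1.15 to 0.49, limma adjusted p = 0.50). This last comparison turned on OE replicate 1. Without that library the log2 fold change was -0.80 with an adjusted p of 0.023, and in a fit that left out mutant replicate 1 too the value was -0.60 (limma adjusted p = 0.043). Without OE replicate 2 it was 0.006. As 4CL5 rests on 41 to 158 reads per library, its counting error at the mean number of reads per library was 9.34% to 11.9%.

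Pooled over the 9 libraries, 4CL4 deviated least from its genotype means among the tested members. Its root mean square deviation was 0.14 on the log2(FPKM + 1) scale, against 0.43 to 0.52 for the other 3. Within WT alone 4CL3 varied less, with a coefficient of variation of 7.46% against 14.0% for 4CL4. 4CL4 was at 2.71, 2.87 and 3.85 FPKM in the mutant replicates. In OE it was at 3.57, 3.08 and 3.72 FPKM. In WT it was at 3.48, 4.41 and 4.55 FPKM. The 3 genotypes overlapped, with the mutant mean of 3.14 ± 0.614 FPKM and the OE mean of 3.46 ± 0.337 FPKM below the WT mean of 4.15 ± 0.580 FPKM (SD, n = 3 each).

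The log2 fold change of 4CL4 in the mutant against WT was -0.32 (SE 0.15, 95% interval -0.65 to 0.02, limma adjusted p = 0.12). It passed without mutant replicate 3, at -0.44 with an adjusted p of 0.048. In OE against WT it was -0.20 (limma adjusted p = 0.68) and in the mutant against OE -0.11 (limma adjusted p = 0.57).

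4CL1 was close to silent in these leaves. It had 1, 1 and 2 reads in the mutant replicates, 1, 3 and 1 in OE and 4, 2 and 2 in WT, or 0.0410 to 0.169 FPKM over the 9 libraries. The genotypes overlapped, and a difference was not detectable at this depth, so no fold change is given. The other 4 members had a mean above 1 FPKM over the 9 libraries and were tested. 4CL2 averaged 0.923 FPKM in OE and 1.04 FPKM in WT, so it reached that mean through the mutant libraries, where it was high. With no filter its adjusted p in the mutant against WT was 0.0016 (limma).

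**Figure D2:**
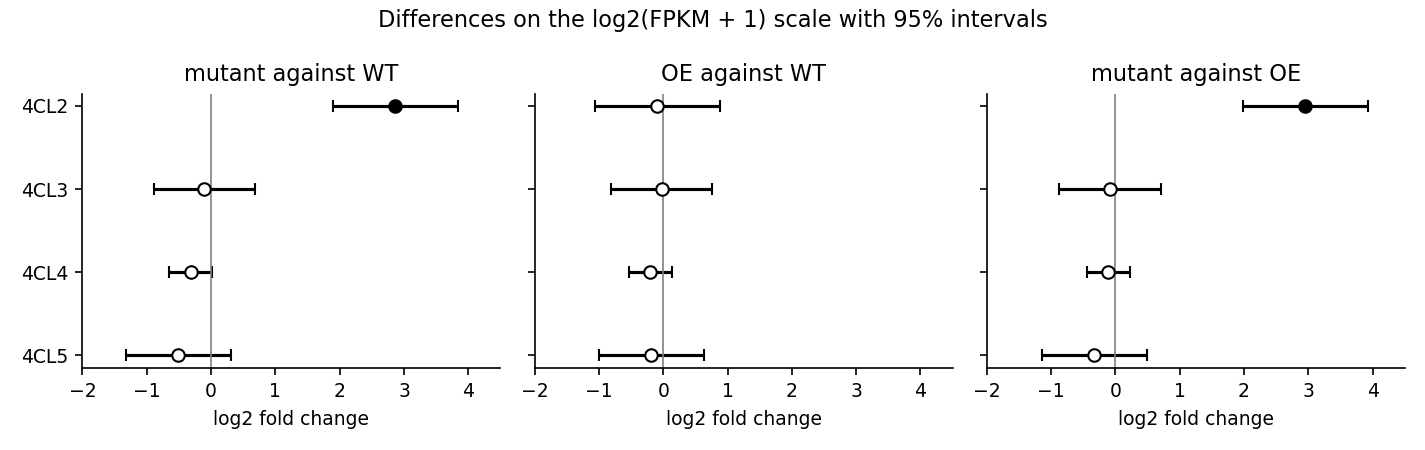
Log2 fold change of the 4 tested ligase genes on the log2(FPKM + 1) scale (horizontal axis) in the mutant against WT, OE against WT and the mutant against OE. Bars are 95% intervals from the limma fit, and filled points passed at an adjusted p under 0.05. Filled points appear for 4CL2 alone, at 2.86 and 2.95 in the comparisons of the mutant, and every other interval crosses 0.

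Counted over the members, 1 of the 4 tested rose and 0 fell in the mutant against WT, and 2 passed without mutant replicate 3, with 4CL4 then lower. Over all 19850 genes tested, 42% passed in that comparison, 19.6% higher and 22.4% lower, so a count of 1 in 4 is not a result about the ligase genes. Groups did not overlap for 2 of the 4 members, 4CL2 and 4CL5, against 55.4% of all genes. The median log2 fold change of the members was -0.21, beside -0.01 for all genes.

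In OE against WT, 0 of the 4 members passed with limma (0 at an unadjusted p under 0.05, and 0 with voom on the recovered reads), where 0.232% of all genes did. Groups overlapped for every member, while they did not overlap for 16.4% of all genes. The median over the members was -0.14, beside -0.004 for all genes.

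In the mutant against OE, 1 of 4 members rose and 0 fell, and 2 passed without OE replicate 1, with 4CL5 then lower. In that comparison 43.4% of all genes passed, 20.5% higher and 22.9% lower. Groups did not overlap for 1 member, 4CL2, against 52.5% of all genes. The median over the members was -0.10, beside -0.02 for all genes.

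4CL2 made up a larger share of the ligase transcript in every mutant library than in any OE or WT library. 4CL2 gave 39.2%, 19.3% and 38.4% of the summed ligase FPKM in the mutant replicates. In OE it gave 1.995%, 0.949% and 5.27%, and in WT 0.997%, 6.06% and 2.16%. The mean share was 32.3 ± 11.3% in the mutant, 2.74 ± 2.25% in OE and 3.07 ± 2.65% in WT (SD, n = 3 each), with no overlap between the mutant and the other genotypes. The OE mean was 1.47% without OE replicate 3, and the WT mean was 1.58% without WT replicate 2. These shares are a description and were not tested.

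4CL3 gave 52.3 ± 10.3% of the sum in the mutant, 71.8 ± 4.02% in OE and 69.4 ± 4.85% in WT (SD, n = 3 each). It exceeded 4CL2 in all 9 libraries, by 1.14 to 3.31 times in the mutant, 13.3 to 80.5 times in OE and 10.6 to 73.9 times in WT. Together, 4CL4 and 4CL5 held the rest except for 0.136%, 0.207% and 0.332% from 4CL1 in the mutant, OE and WT. The share of 4CL4 was 7.50% in the mutant, 12.0% in OE and 12.3% in WT, and that of 4CL5 was 7.75%, 13.3% and 14.9% in the mutant, OE and WT.

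The summed level itself did not separate the genotypes. It was 30.6, 41.5 and 57.3 FPKM in the mutant replicates, 18.6, 46.9 and 37.1 FPKM in OE and 34.5, 34.4 and 32.4 FPKM in WT. Without 4CL2 the sum was 29.1 ± 9.17 FPKM in the mutant, 33.3 ± 14.2 FPKM in OE and 32.7 ± 1.26 FPKM in WT (SD, n = 3 each). The ratio of 4CL5 to 4CL3 varied less than either gene within the mutant and OE, at 0.148 ± 0.0127 in the mutant, 0.184 ± 0.0406 in OE and 0.216 ± 0.0397 in WT (SD, n = 3 each).

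**Figure D3:**
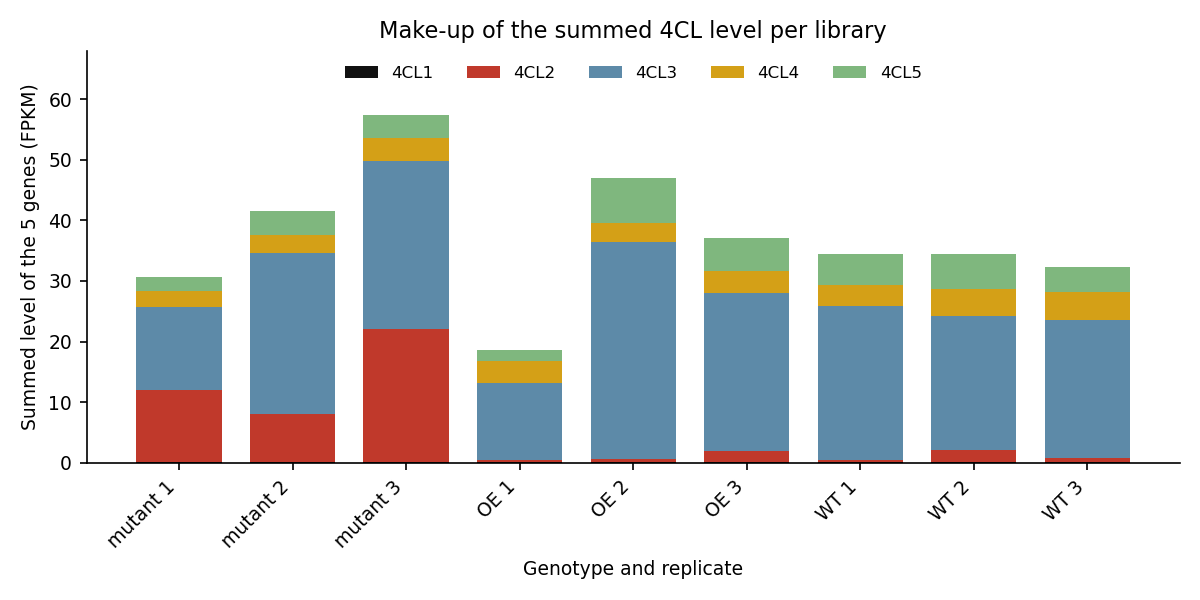
Summed level of the 5 ligase genes in FPKM (vertical axis) in each of the 9 libraries, divided by gene. The 4CL2 segment makes up 19.3% to 39.2% of the mutant bars, 0.949% to 5.27% of the OE bars and 0.997% to 6.06% of the WT bars, and the 4CL3 segment is the largest in all 9.

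The closest of the other pathway genes to each member was sought over the 9 libraries. Likeness was measured as the root mean square difference of log2(FPKM + 1) values, each centred on the gene's own mean, so a smaller value means more alike patterns. These libraries share depth and preparation between genes, and the genotype differences themselves enter the measure, so it is a description without a test.

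For 4CL2 the most alike pathway gene was CHS1 (Os11g0530600), which encodes chalcone synthase, the flavonoid enzyme that uses the ligase product. Their difference was 0.41, and 9 of all genes tested (0.0453%) were nearer to 4CL2. CHS1 was at 65.5, 38.8 and 122.5 FPKM in the mutant replicates, 3.81, 3.96 and 15.5 FPKM in OE and 5.18, 28.0 and 8.11 FPKM in WT. The order of the libraries within a genotype was the same for CHS1 and 4CL2 in all 3 genotypes. CHS1 rose by 2.55 in the mutant against WT on the log2(FPKM + 1) scale (SE 0.66, limma adjusted p = 0.012, and 0.0044 to 0.050 over all alternatives). Without WT replicate 1 it was 2.08 and just missed the threshold. Next came CAD3 (Os10g0430200), a cinnamyl alcohol dehydrogenase gene, at a difference of 0.92 with 756 genes (3.81%) nearer. CHS1 does not stand for the flavonoid genes as a group, where 3 of 5 identifiers had a supported name. CHI, a chalcone isomerase gene, did not pass in the mutant against WT (log2 fold change 0.41, limma adjusted p = 0.20), and its groups overlapped. CHS2, also listed as a chalcone synthase gene, had 0 reads in every genotype.

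With each genotype centred on its own mean, a measure chosen after seeing the data, CHS1 was still the most alike pathway gene. The difference was 0.33, against a deviation of 4CL2 itself of 0.52, and 39 genes (0.197%) were nearer. Other members were far from 4CL2 on the full pattern, with 61.2% to 78.4% of all genes nearer than 4CL3, 4CL4 or 4CL5. Within genotypes this held for 4CL3 and 4CL5, with 89.7% and 81.9% of genes nearer, but not for 4CL4, with 4.32% nearer.

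4CL3 and 4CL5 were close to each other, at a difference of 0.23 over the 9 libraries. Among the genes tested, 13 (0.0655%) were nearer to 4CL3 than 4CL5 was, and 7 (0.0353%) were nearer to 4CL5 than 4CL3 was. The pathway genes most like 4CL3 were CAD2 (Os02g0187800), the cinnamyl alcohol dehydrogenase known to act in lignin synthesis in rice, at 0.23 with 15 genes nearer, and HCT1 (Os04g0500700), a hydroxycinnamoyltransferase, at 0.28 with 64 genes nearer. For 4CL5 they were ZB8 (Os02g0626100), a phenylalanine ammonia-lyase that starts the pathway, at 0.28 with 34 genes nearer, and ROMT-15 (Os08g0498100), a caffeoyl-CoA O-methyltransferase gene, at 0.32 with 116 genes nearer.

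Within genotypes HCT1 was the pathway gene most like 4CL3. The difference was 0.09 against a deviation of 4CL3 itself of 0.43. Centring on genotype means can only lower a difference or leave it as it was, so its drop is not a result. Genes nearer to 4CL3 than HCT1 were 2 (0.0101%), beside 64 on the full pattern. HCT1 was at 55.0, 93.0 and 106 FPKM in the mutant replicates, 38.0, 88.6 and 63.5 FPKM in OE and 65.7, 55.6 and 52.0 FPKM in WT. Like 4CL3, it was lowest in replicate 1 of the mutant and of OE. CAD2 was at 64.2, 116 and 175 FPKM in the mutant replicates, 71.9, 252 and 159 FPKM in OE and 111, 111 and 113 FPKM in WT. ZB8 was likewise lowest in replicate 1 of the mutant and of OE, at 30.6 and 41.5 FPKM, beside 79.3 to 117.5 FPKM in WT. The part of these libraries' position in the likeness was not tested.

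For 4CL4 the pathway genes were no nearer than most genes on the full pattern. The nearest was CHI (Os03g0819600), a chalcone isomerase gene, at 0.38, and 66.7% of all genes were nearer. ROMT-15 followed at 0.47, with 76.6% nearer. With each genotype centred on its own mean, the nearest was 4CLL1 (Os03g0152400), a ligase-like gene, at 0.12 against a deviation of 4CL4 itself of 0.14, with 10.3% of genes nearer. 4CL4 varied little, with centred values of -0.29 to 0.29 on the full pattern. The measure places other genes that vary little near it, so these shares reflect the size of variation as well as its pattern.

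**Figure D4:**
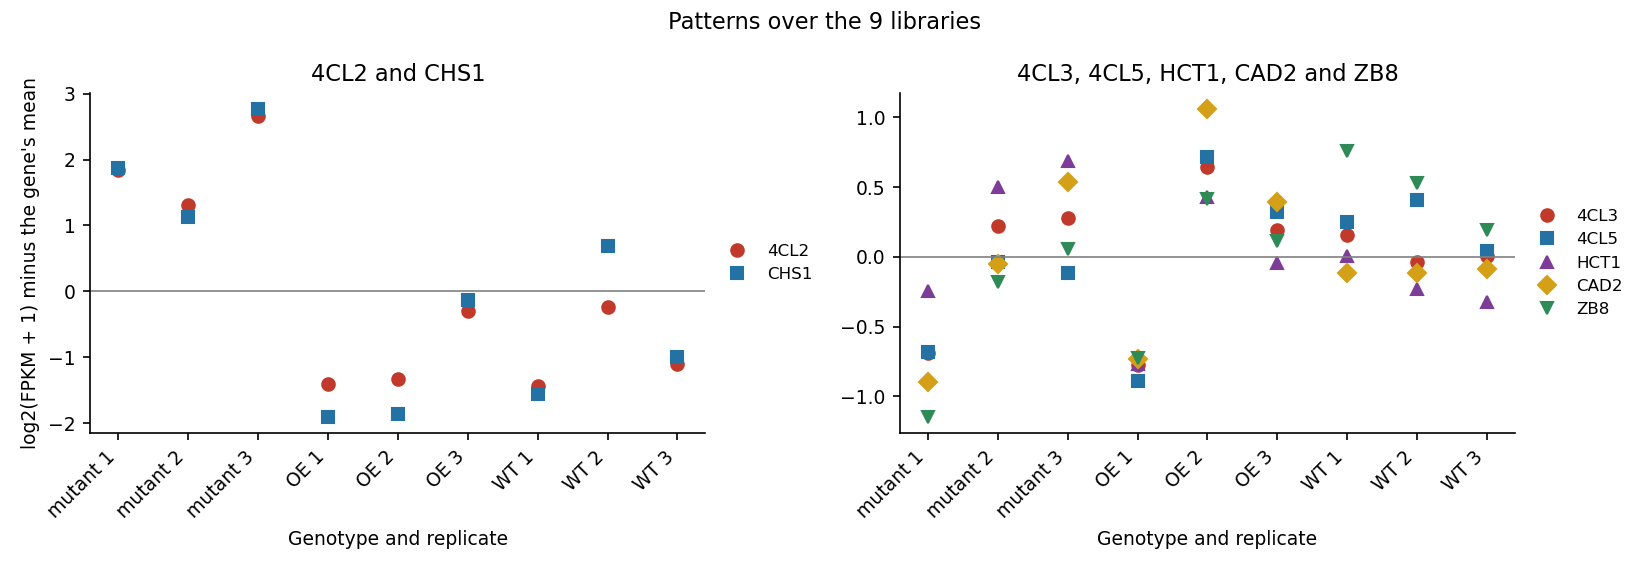
Log2(FPKM + 1) of each gene minus its mean over the 9 libraries (vertical axis), by library. Left, 4CL2 and CHS1 stand at 1.13 to 2.77 in the mutant and at -1.91 to 0.68 in OE and WT. Right, 4CL3, 4CL5, HCT1, CAD2 and ZB8 lie lowest in replicate 1 within the mutant and within OE.

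The other genes of the pathway were described from lists of phenylalanine ammonia-lyase, cinnamate 4-hydroxylase, hydroxycinnamoyltransferase with coumarate 3-hydroxylase, methylation with ferulate 5-hydroxylase, and cinnamoyl-CoA reductase genes. Further lists held cinnamyl alcohol dehydrogenase, flavonoid and ligase-like genes. Names were supported for 20 of 54 identifiers, and 13 of those were tested. Support was uneven, at 1 of 9 phenylalanine ammonia-lyase, 1 of 6 cinnamoyl-CoA reductase and 9 of 11 cinnamyl alcohol dehydrogenase identifiers. It held for 0 of 4 cinnamate 4-hydroxylase identifiers and for none of the coumarate 3-hydroxylase or ferulate 5-hydroxylase ones. In the mutant against WT, 4 of the 13 rose, 1 fell and 8 did not pass, with a median log2 fold change of 0.41 beside -0.01 for all genes. These 5 of 13 stand beside the 42% of all genes that passed. The count was 3 when genes below 5 FPKM were left out, 8 in a fit of the mutant and WT alone and 8 without OE replicate 1.

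CAD3 averaged 271 ± 53.9 FPKM in the mutant and 104 ± 36.4 FPKM in WT (SD, n = 3 each), a log2 fold change of 1.41 (limma adjusted p = 0.00097). CAD9 (Os03g0223200), of the same enzyme family, rose by 1.01 (limma adjusted p = 0.0041). Its means were 3.26 FPKM in the mutant, 0.492 FPKM in OE and 1.14 FPKM in WT. Like 4CL2, CAD9 thus entered the test through the mutant libraries. With no filter its adjusted p was 0.0060 (limma). CAD8B (Os09g0400000) fell by 1.91 (limma adjusted p = 0.00029), at 0.281, 0.286 and 0.960 FPKM in the mutant replicates and 3.53, 6.63 and 3.94 FPKM in WT. It lies beside similar copies, CAD8A, CAD8C and CAD8D, and reads may have been split among them. CAD8B had 22 reads in the mutant and 213 in WT. The copies had 0, 0 and 1 reads in the mutant and 0, 2 and 62 in WT, for CAD8A, CAD8C and CAD8D. These copies were below the filter, and the part of split reads in the fall of CAD8B was not tested. Of the 5 dehydrogenase genes tested, 2 were higher, 1 was lower and 2 did not pass, beside 19.6% higher and 22.4% lower over all genes.

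In the ligase-like group, 4CLL1 (Os03g0152400) encodes a related enzyme of less certain substrate. Here 4CLL1 is its RefSeq name, while the identifier had been listed as 4CLL4. 4CLL1 was at 30.9, 29.1 and 34.4 FPKM in the mutant replicates, 14.8, 17.3 and 19.9 FPKM in OE and 15.6, 17.5 and 18.2 FPKM in WT. All mutant libraries lay above all others, and groups did not overlap for 55.4% of all genes in the mutant against WT. 4CLL1 rose by 0.84 in that comparison (SE 0.12, limma adjusted p = 0.00045). The other ligase-like gene with a supported name, 4CLL7 (Os07g0280200, listed as 4CLL6), was below the filter and not tested. Its level was lower in the mutant, at a mean of 0.0884 FPKM from 5 reads, than in WT, at 0.585 FPKM from 35 reads. The genes most like 4CL3 and 4CL5 did not pass: the log2 fold changes were -0.03 for CAD2 (limma adjusted p = 0.96), 0.50 for HCT1 (0.23), -0.92 for ZB8 (0.060) and -0.03 for ROMT-15 (0.94). They were picked by a measure that includes the genotype differences, so this is not separate from the result for 4CL3 and 4CL5. ZB8 passed without OE replicate 1 (limma adjusted p = 0.033) and without mutant replicate 3 (limma adjusted p = 0.038). It was -0.56 without mutant replicate 1 (limma adjusted p = 0.19) and -0.79 without WT replicate 1 (limma adjusted p = 0.17). HCT1 passed, at 0.78, without both OE replicate 1 and mutant replicate 1 (limma adjusted p = 0.0080), and CAD2 was 0.35 without mutant replicate 1, with the sign turned.

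In OE against WT, 0 of the 13 passed with limma (1 at an unadjusted p under 0.05, and 0 with voom on the recovered reads), where 0.232% of all genes did. In the mutant against OE, 4 rose and 1 fell, beside 43.4% of all genes that passed, 20.5% higher and 22.9% lower. The median was 0.04, beside -0.02 for all genes, and the gene that fell was CAD8B (-1.69). The count of 5 was 3 when genes below 5 FPKM were left out. CHS1 was higher in the mutant than in OE by 3.23 (SE 0.66, limma adjusted p = 0.0036), as 4CL2 was. The likeness of CHS1 to 4CL2 was measured with the genotype differences included, so this shared direction is not a separate result.

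**Figure D5:**
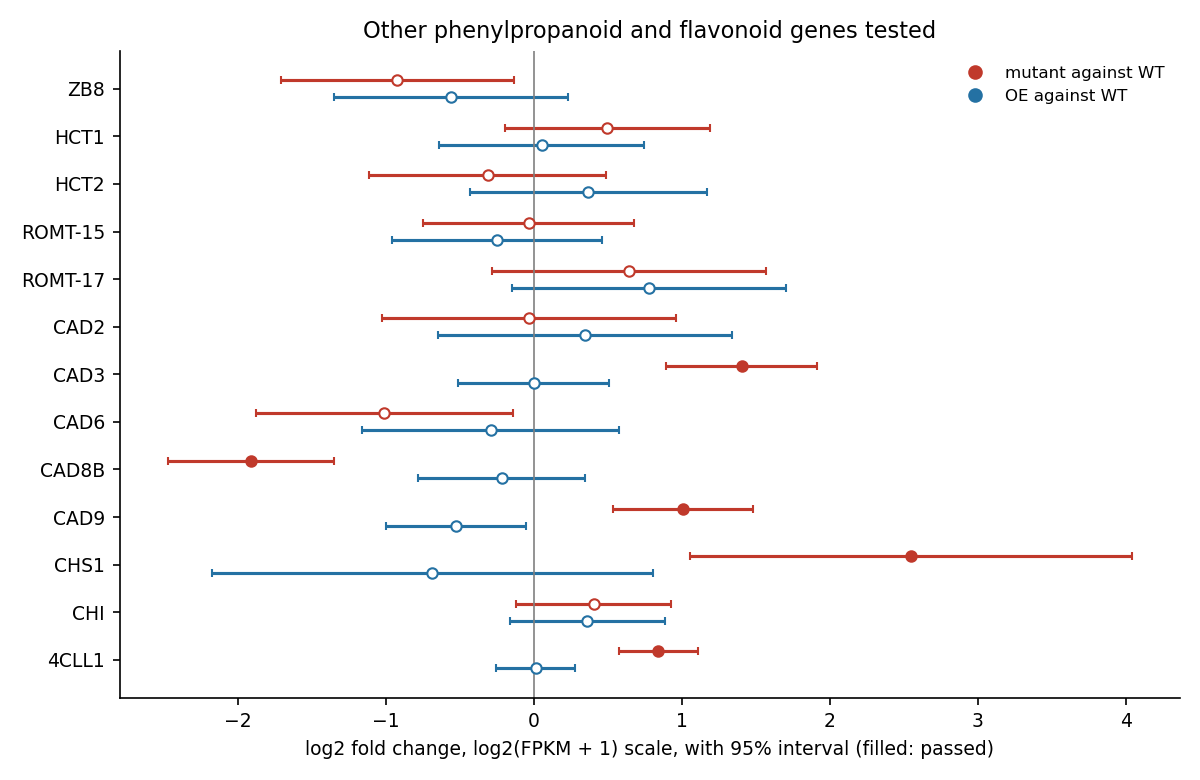
Log2 fold change (horizontal axis, log2(FPKM + 1) scale) of the 13 other tested pathway genes in the mutant against WT and in OE against WT, with 95% intervals. Filled points passed at an adjusted p under 0.05: CAD3, CAD9, CHS1 and 4CLL1 higher and CAD8B lower in the mutant, and 0 of the 13 in OE.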

How the data were processed

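The authors deposited FPKM per gene for 9 leaf libraries, prepared with a TruSeq RNA kit per the labels' protocols. Bowtie 0.12.2, Cuffdiff and the build IRGSP-1.0 are named in the submitters' processing notes, which do not say what each did. How reads matching several genes were counted is not given in the sources used here. The table holds 37858 genes and 1 further per-sample column that matches no sample and was not used.

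The deposited FPKM resolved into whole reads for 30062 of 30062 genes above 0, at a relative tolerance of 3e-07. No pair of replicates was alike within sampling noise (mean chi-square of a gene 6.51 to 17.69), so each was kept as a library. Counting errors quoted cover counting only.

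Limma 3.58.1 in R 4.3.3 was fitted to log2(FPKM + 1) of all 9 libraries, with a mean-variance trend and no covariate, for the 19850 genes whose mean reached 1 FPKM. Two-sided p-values were adjusted over all of these genes by the Benjamini-Hochberg method, with 0.05 as the threshold. The scripts were tested on simulated data.

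The members and lists were chosen with earlier results of these data known. The identifiers were matched to names known beforehand. Each name was checked against RefSeq genes of assembly ASM3414082v1, and was kept where that name stood on the same chromosome within 0.03 of the same relative rank. This held for 5 of 5 members and 20 of 54 pathway identifiers, with 6 aliases chosen after the files were seen. For the markers it held for 4 of 6 leaf, 3 of 3 secondary wall and 3 of 3 floral identifiers. The pathway genes named were up to 3 called genes per list of smallest adjusted p in the mutant against WT, those called in OE against WT and the 2 genes most like each tested member. Other members of the flavonoid, ligase-like and dehydrogenase lists were given beside them. The settings varied were the pseudocount (0.1 or 5), the filter (none or 5 FPKM), the scaling (quantile or upper-quartile), the libraries fitted (only the 2 groups compared), the variance trend (none), array weights, a replicate block, voom on recovered reads, and leaving out each library. The likeness within genotypes and the fit without OE replicate 1 and mutant replicate 1 were added after seeing the data. The gene that the study altered is not reported here. Promoter motifs and protein identities were not analysed here.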

Additional observations from a re-analysis of the deposited data

How the results depend on the processing

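4CL2 was higher in the mutant under every alternative, at 1.60 to 3.97 against WT (2.50 to 3.20 without 1 library at a time) and 1.63 to 4.19 against OE (2.59 to 3.31). 4CL2 in OE against WT had values of -0.45 to 0.25 with each library left out in turn, reversed without OE replicate 1 (0.11), OE replicate 2 (0.07) or WT replicate 2 (0.25), and was 0.11 without both OE replicate 1 and mutant replicate 1. Without that pair of libraries, 4CL3 was 0.21 in the mutant against WT and 0.37 in OE against WT, 4CL5 was 0.29 in OE against WT and, for the mutant against OE, -0.60, 2 members passed in the mutant against OE, 7 pathway genes passed in the mutant against WT and 1 in OE against WT, and 120 genes passed in OE against WT. Leaving out single libraries gave for 4CL3 -0.28 to 0.21 in the mutant against WT, -0.34 to 0.37 in OE against WT and, for the mutant against OE, -0.48 to 0.23. It gave for 4CL5 -0.52 to 0.29 in OE against WT and, for the mutant against OE, -0.80 to 0.006 (0.006 without OE replicate 2), and in the mutant against WT -0.63 to -0.31 for 4CL5 and -0.44 to -0.24 for 4CL4. Array weights gave 4CL3 0.14 in OE against WT, and quantile normalization gave 4CL4 0.012 in the mutant against OE. Members called were 1 to 2 in the mutant against WT, with 2 without mutant replicate 3, and 1 to 2 in the mutant against OE, with 2 without OE replicate 1. Pathway genes called in the mutant against WT were 5, with 3 under the filter at 5 FPKM, where fewer genes were tested, 8 with only those groups fitted, and 4 to 8 with each library left out in turn (8 without OE replicate 1). Those called in OE against WT were 0, and 0 with each library left out in turn, and those called in the mutant against OE were 5, and 3 under that filter. Over all genes, 46 passed in OE against WT, 29 with the filter at 5 FPKM, and 27 (without WT replicate 1) to 71 (without OE replicate 1) with each library left out in turn. In the mutant against WT, ROMT-15 was 0.016 and CAD2 0.031 with array weights, CAD2 was -0.37 to 0.35 and ROMT-15 -0.26 to 0.12 with each library left out in turn, and they were 0.35 and 0.12 without the pair of libraries. ZB8 passed with quantile normalization (-0.97), array weights (-0.85) or the fit of those groups alone (-0.92). Where a cause is not given, the cause was not tested. 4CL4 and 4CL5 have no value under the filter at 5 FPKM.

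Deviations from genotype means correlated at -0.07 to 0.21 between same-numbered libraries of different genotypes and at -0.23 to 0.22 between differently numbered ones. The highest correlation of a mutant with an OE library was 0.21, for replicate 1 of both. As the ranges overlap, these values cannot decide whether the numbers pair samples. With the replicate number as a block, 4CL2 was 2.86 in the mutant against WT (limma adjusted p = 0.0013) and no call of a member changed, while ZB8 passed at -0.92. Genes passing were 8318, 38 and 8543 in the mutant against WT, OE against WT and the mutant against OE, beside 8333, 46 and 8622. Depth limits 4CL1 and the low 4CL2 levels of OE and WT most.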
